A study of Rattus norvegicus with 62 samples.

Results

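The genes described here are 10 rat genes that make, hand on or break down eicosanoids and related lipid mediators: Ptgs1, Ptgs2, Ptges, Ptgds, Hpgd, Alox5, Alox5ap, Alox15, Ltc4s and Pla2g7. They were chosen by symbol and found in both count tables, 10 of 40982 genes listed. The question of the study was how the dorsal root ganglion answers a chronic constriction injury, in which loose ties around the sciatic nerve give a lasting neuropathic pain state, and how that answer differs by sex and over time. L4 ganglia, where the cell bodies of sensory neurons lie among glia, vessels and immune cells, were taken from the injured (ipsilateral) side and from the opposite (contralateral) side. The groups were male rats at 24 h (6 libraries a side), 1 week (7 a side) and 5 weeks (5 a side) and female rats at 1 week (7 a side) and 5 weeks (6 a side). Every rat carried the injury, so the control side belongs to an injured animal, and no uninjured group was used here. Strain and age are not given in the sources used here.

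Eicosanoids are short-lived signals cut from arachidonic acid, which phospholipases free from membranes. Cyclooxygenases turn it into the common precursor of prostaglandins and thromboxane, and terminal synthases then make the single mediators; lipoxygenases open the other branch, towards leukotrienes and hydroxy fatty acids. In sensory ganglia prostaglandin E2 and prostacyclin are known to lower the threshold of nociceptors, which is why cyclooxygenase inhibitors relieve inflammatory pain.

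In the injured ganglion the clearest difference was in Pla2g7, a secreted enzyme that inactivates platelet-activating factor. It was lower on the injured side by 2.77 to 3.55 times at 1 and 5 weeks in both sexes and differed by 1.06 times at 24 h, where it was not called. Ptges, the inducible prostaglandin E synthase, rose in males at 1 and 5 weeks and in females at 1 week. The genes of the leukotriene branch, Alox5, Alox5ap and Ltc4s, and Alox15 rose in males at 1 week, while in females Ltc4s rose at 1 week and the other 3 were not called. The difference between the sexes at 1 week was itself not called for Alox5, Alox5ap or Alox15 (edgeR adjusted p = 0.693, 0.142 and 0.130). Against the male controls of 5 weeks these male rises, that of Ltc4s among them, were not called. Ptgs2, the inducible cyclooxygenase, moved in opposite directions at 1 week, up in males and down in females, at a level of 18 reads or fewer in each library. Against the controls of 5 weeks of the same sex neither change of Ptgs2 was called. After adding ribosomal RNA content to the model, the female fall and the difference between the sexes were not called.

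A gene was called when its adjusted p, from the quasi-likelihood test of edgeR with Benjamini-Hochberg adjustment over all genes tested, was under 0.05; all adjusted p-values below are of this kind unless another test is named. Levels are CPM, read counts scaled to a common library total, changes are log2 of ipsilateral over contralateral with their SE, and n is the number of libraries. At 24 h in males, 0 of 9 members tested rose and 1 fell, against 14.1% of all genes called, 8.2% higher and 5.89% lower. At 1 week in males 6 of 10 rose and 1 fell, against 46.9% of all genes, 23.6% higher and 23.4% lower. Males at 5 weeks had 1 of 10 higher and 1 lower, against 34.7% of all genes, 16% higher and 18.7% lower. Females at 1 week had 2 of 9 higher and 2 lower, against 45.7% of all genes, 23.9% higher and 21.7% lower. Females at 5 weeks had 0 of 9 higher and 1 lower, against 41.9% of all genes, 22.8% higher and 19.1% lower. The share of members called was above that of all genes in males at 1 week, close to it in females at 1 week and at 24 h, and below it at 5 weeks in both sexes. The members were chosen with earlier results of these data known, so these shares are descriptions. Against the male controls of 5 weeks, 2 members were called in males at 1 week, with 9240 of 18994 genes called. Sides did not overlap at all for 0 members at 24 h, where 5.44% of all genes had such a gap. The median change of the members tested was 0.85 in males at 1 week, against 0.01 over all genes, and between -0.25 and 0.30 in the other comparisons, against -0.01 to 0.01. At 24 h the 1 call, a fall of Alox15, was lost in several other fits given below.

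**Figure D1:**
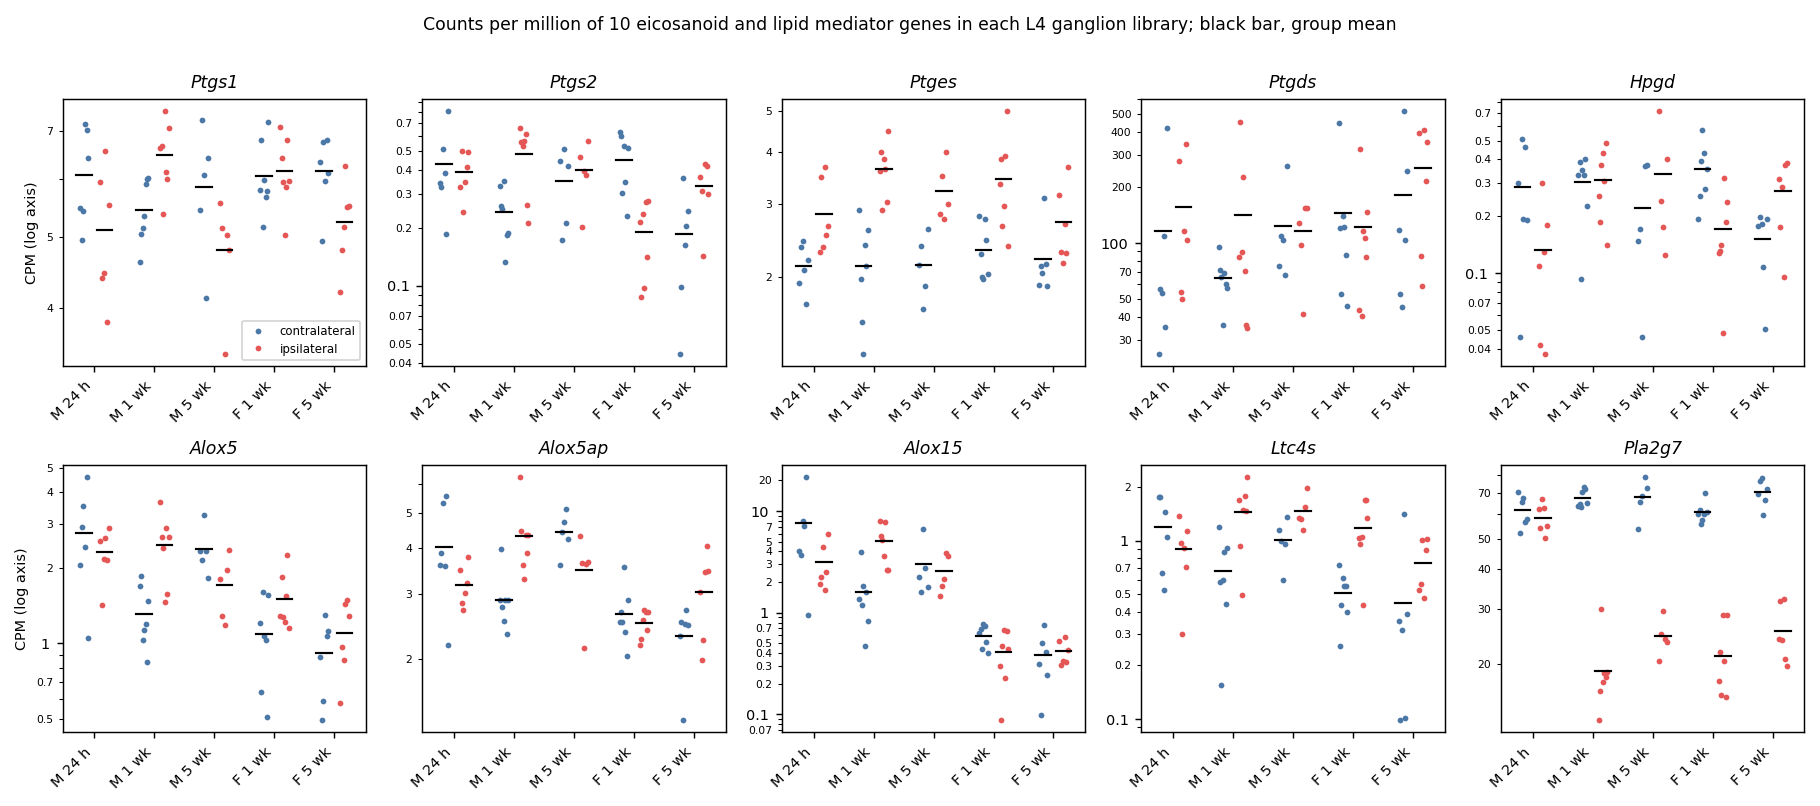
CPM on a log axis of the 10 genes in each of 62 libraries, by sex and time, contralateral in blue and ipsilateral in red, with the group mean as a black bar. Pla2g7 separates the sides at 1 and 5 weeks and not at 24 h, while Ptgds spreads from 25.1 to 519 CPM on the contralateral and from 34.6 to 452 CPM on the ipsilateral side.

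Library totals ran from 16.9M to 33.5M counts. Males at 1 and 5 weeks were counted in 1 table and all other groups in a second, so at these times sex and table cannot be told apart, and levels set across the tables are descriptions. The 8 neuron markers were detected in every group and summed to between 20991 and 37991 CPM, and 5 of 5 nerve injury genes rose at 1 and 5 weeks in both sexes (4 of 5 at 24 h). On the injured side 10 of 12 macrophage markers rose in males at 1 week, 9 in females at 1 week, 10 in females at 5 weeks, 5 in males at 5 weeks (1 fell) and 0 at 24 h, while 5 of 8 neuron markers fell in each of the 4 later comparisons and 2 or 3 rose. All 8 neutrophil and all 10 erythroid markers rose in males at 1 week, and 0 of either list rose in the other 4 comparisons. In whole ganglia fewer cells of a type and less RNA per cell cannot be told apart. The share of ribosomal RNA counts was 1.69% to 2.76% in contralateral and 0.692% to 1.42% in ipsilateral libraries of females at 1 week, with no overlap; in the other arms the sides overlapped.

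On the control side, scaled to exon length, the order of levels was alike in the 5 groups at its top. Ptgds came first, with group means of 85.5 to 238 CPM per kb, and Pla2g7 second, with 32.3 to 37.4 CPM per kb. Alox5ap followed with 2.47 to 4.73 CPM per kb and Ptgs1 with 1.95 to 2.21 CPM per kb. Ptges had 1.69 to 1.85 CPM per kb and came next, except at 24 h in males, where Alox15 stood above it at 2.05 ± 1.98 (SD, n = 6). Alox5 (0.328 to 0.994) and Ltc4s (0.304 to 0.817) did not differ beyond their spread in any control group. Ptgs2 (0.103 to 0.248) and Hpgd (0.0903 to 0.211) were the 2 lowest in 4 of the 5 control groups; in females at 1 week Alox15 stood below them at 0.161 CPM per kb.

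The 250 bases before the start site are shown for 3 genes, Ptgs2, for its opposite side changes at 1 week, and Ptges and Pla2g7, for their sides without overlap, as RefSeq gives them in the build GRCr8, 5′ to 3′ on the strand of the gene; 8 of the 10 members had an entry. The motifs searched on both strands were the TATA box TATAAA, the cyclic AMP response element TGACGTCA, its shorter core CGTCA (contained in the former), the AP-1 motif TGANTCA, the GC box GGGCGG and the E-box CACGTG, and matches are in capitals. The windows lie at chr13:64713813-64714062 (plus strand) for Ptgs2, chr3:34586988-34587237 (minus strand) for Ptges and chr9:24901748-24901997 (minus strand) for Pla2g7.
Ptgs2: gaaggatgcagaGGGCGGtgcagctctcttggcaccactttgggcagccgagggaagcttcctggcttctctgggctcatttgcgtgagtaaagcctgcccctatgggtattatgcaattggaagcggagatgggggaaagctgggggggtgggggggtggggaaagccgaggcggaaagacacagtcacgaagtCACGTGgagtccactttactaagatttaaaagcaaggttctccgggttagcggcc
Ptges: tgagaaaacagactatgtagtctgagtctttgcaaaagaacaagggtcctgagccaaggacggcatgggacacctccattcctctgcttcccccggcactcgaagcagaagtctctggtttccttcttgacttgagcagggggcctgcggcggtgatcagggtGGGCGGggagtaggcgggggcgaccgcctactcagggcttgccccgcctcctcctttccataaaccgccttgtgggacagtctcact
Pla2g7: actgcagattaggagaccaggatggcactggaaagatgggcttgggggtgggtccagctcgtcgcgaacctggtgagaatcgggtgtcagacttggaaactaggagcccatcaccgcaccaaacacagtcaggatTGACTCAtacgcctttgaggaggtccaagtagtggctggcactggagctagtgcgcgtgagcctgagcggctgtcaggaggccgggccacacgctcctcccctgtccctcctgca
The Ptgs2 window holds a GC box from 238 bases before the start and an E-box from 55 bases before it. The Ptges window holds a GC box from 87 bases before the start. The Pla2g7 window holds an AP-1 motif from 115 bases before the start. Of 33469 promoters of this length, 30.5% hold the GC box, 5.59% the E-box, 6.34% the AP-1 motif, 12.9% the TATA box, 18.2% the short core and 1.59% the full cyclic AMP response element. Of the members with an entry that are not shown, Ptgs1 and Ltc4s held no match to any of these motifs, while Ptgds, Hpgd and Alox5 held matches. A match describes letters only.

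Ptgs1 (chr3:19584015-19605589, plus strand, mRatBN7.2), the constitutive cyclooxygenase, was read at similar levels in every group, from 3.46 to 7.45 CPM in 62 libraries. In males at 1 week contralateral libraries held 4.63, 5.35 and 6.02 CPM (lowest, median and highest) and ipsilateral ones 5.38, 6.62 and 7.45. The ranges overlapped, all 7 pairs were higher on the injured side, and the change of 0.25 ± 0.11 was not called (adjusted p = 0.0565), although it was with the replicate number as a block (adjusted p = 0.0452; for males at 1 and 5 weeks the labels do not state that libraries of 1 number share an animal), with DESeq2 (adjusted p = 0.0458), with the stricter filter (adjusted p = 0.0384), with the 2 groups fitted alone (adjusted p = 0.0183) and without control library 6 or 7 or injured library 3 (adjusted p = 0.0497, 0.0473 and 0.0292). The change was -0.25 ± 0.12 at 24 h, -0.29 ± 0.13 in males at 5 weeks, 0.02 ± 0.11 in females at 1 week and -0.23 ± 0.12 in females at 5 weeks, none of them called; without control library 4 the value at 5 weeks in males was -0.37 (adjusted p = 0.0194).

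Ptgs2 (chr13:62164080-62169770, plus strand), the cyclooxygenase induced by cytokines and neuronal activity, was among the rarest members, with 1 to 18 reads a library. In males at 1 week contralateral libraries held 0.133, 0.249 and 0.352 CPM (lowest, median and highest) and ipsilateral ones 0.212, 0.558 and 0.659. Of the 7 ipsilateral libraries 5 stood above the whole control range, numbers 6 and 7 stood inside it, and all 7 pairs were higher. The rise was 1.00 ± 0.29, or 2.00-fold (adjusted p = 0.00624).
Females at 1 week showed the reverse order. Contralateral libraries held 0.231, 0.517 and 0.629 CPM and ipsilateral ones 0.0874, 0.215 and 0.277. The ranges overlapped between 0.231 and 0.277 CPM, and all 7 pairs were lower on the injured side. Ptgs2 fell by 1.22 ± 0.33 on the log2 scale, 2.32-fold (adjusted p = 0.00232).
The test of the difference between the sexes at 1 week gave -2.23 ± 0.44 (adjusted p = 0.00115). It was the only call of edgeR among the 10 members in a comparison that called 1.13% of all genes, 0.432% higher and 0.702% lower. DESeq2 gave Ptgs2 no adjusted p in this comparison. At 5 weeks 0 of 10 members were called between the sexes by edgeR and 0 by its block fit, with 2.1% of all genes called, 1.55% higher and 0.546% lower. In females the side difference also moved between the weeks, by 2.01 ± 0.50 (adjusted p = 0.00519), the only 1 of 9 members tested that was called, with 13.5% of all genes called, 7.65% higher and 5.87% lower. At 5 weeks the change was 0.80 ± 0.38 in females (adjusted p = 0.0934, and 0.0299 or 0.0484 without control or injured library 3) and 0.18 ± 0.36 in males (adjusted p = 0.760), and at 24 h -0.11 ± 0.32 (adjusted p = 0.877).
The female control side moved too: contralateral Ptgs2 was 0.451 ± 0.156 CPM (SD, n = 7) at 1 week and 0.186 ± 0.112 (n = 6) at 5 weeks, a fall of 1.25 ± 0.35 on the log2 scale (adjusted p = 0.0164, with 10.7% of all genes called between these control groups, 3.15% higher and 7.54% lower). Set against the female controls of 5 weeks, the injured libraries of 1 week gave 0.03 (adjusted p = 0.954), and the male injured libraries of 1 week against the male controls of 5 weeks gave 0.47 (adjusted p = 0.240). After adding ribosomal RNA content to the model, the female fall was -1.34 (adjusted p = 0.10), the difference between sexes -1.88 (adjusted p = 0.0604) and that between female weeks 2.14 (adjusted p = 0.0807).

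Ptges (chr3:14177892-14189236, minus strand), microsomal prostaglandin E synthase, makes prostaglandin E2 from the cyclooxygenase product. In males at 1 week contralateral libraries held 1.30, 2.12 and 2.89 CPM (lowest, median and highest) and ipsilateral ones 2.89, 3.63 and 4.5. The ranges touched at 2.89 CPM without overlapping. At 5 weeks the 5 male contralateral libraries held 2.13, 2.37, 1.67, 1.90 and 2.61 CPM and the 5 ipsilateral ones 2.83, 3.49, 2.76, 3.99 and 2.99. Again each injured library lay above each control library. Sides without overlap were found in 22.1% of all genes at 1 week and 21% at 5 weeks. In females at 1 week contralateral libraries held 1.97, 2.26 and 2.81 CPM and ipsilateral ones 2.37, 3.35 and 5.02, with overlapping ranges and all 7 pairs higher.
The rises were 0.78 ± 0.15 in males at 1 week (1.72-fold, adjusted p = 0.000102), 0.59 ± 0.18 in males at 5 weeks (1.5-fold, adjusted p = 0.0131) and 0.57 ± 0.15 in females at 1 week (1.48-fold, adjusted p = 0.00198). At 24 h the change was 0.42 ± 0.17 with 5 of 6 pairs higher (adjusted p = 0.0855) and in females at 5 weeks 0.30 ± 0.17 with 5 of 6 pairs higher (adjusted p = 0.146). In females at 5 weeks 1 control library, number 4, held 3.09 CPM against 1.90 to 2.15 in the other 5, and without it the change was 0.42 (adjusted p = 0.0444). No difference of the side change was called for Ptges between times or sexes, with estimates from -0.32 to 0.36. Genes most alike to Ptges across 62 libraries, after group means were removed, were Cxcl16 (r = 0.59) and Pik3r5 (r = 0.58), out of 13640 genes compared.

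Ptgds (chr3:8281899-8284833, minus strand), the lipocalin-type prostaglandin D synthase of meninges and glia, was the most abundant member on the control side when scaled to exon length. In CPM its mean was below that of Pla2g7 in male controls at 1 week, 64.9 against 67.6. The spread of Ptgds between libraries was wide. Within every group it spread by 2.67-fold or more; among male contralateral libraries at 24 h it ran from 25.1 over a median of 55.0 to 419 CPM. Male contralateral libraries at 1 week held 35.8, 65.4 and 95.6 CPM and ipsilateral ones 34.6, 84.0 and 452, and 4 of 7 pairs were higher. The ipsilateral range enclosed the control range, and the change of 1.13 ± 0.50 was not called (adjusted p = 0.0708; DESeq2 adjusted p = 0.0426, and edgeR 0.0337 without injured library 6 or 7). The other 4 comparisons gave -0.24 to 0.49 with SE of 0.59 to 0.71 on the log2 scale, and none was called. Libraries high in Ptgds were high in fibroblast and meninges markers (r = 0.74 over 62 libraries after group means were removed, 10 markers). The 3 genes most alike were Gjb6 (r = 0.95), Igf2 (r = 0.91) and Aldh1a2 (r = 0.90). The part of attached meninges in the Ptgds level was not tested.

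Hpgd (chr16:33986265-34024228, minus strand), which inactivates prostaglandins, was read 1 to 14 times a library. In the table of males at 1 and 5 weeks it was tested and not called (0.05 ± 0.37 and 0.55 ± 0.50). In the other table it missed the filter on low counts, so an exact two-sided permutation test of log2(CPM + 0.5) was run after this was seen. Female contralateral libraries at 1 week held 0.194, 0.358 and 0.575 CPM and ipsilateral ones 0.0484, 0.142 and 0.318. The ranges overlapped and all 7 pairs were lower on the injured side, by -0.35 on the log2(CPM + 0.5) scale (exact p = 0.00758, adjusted over 3 comparisons 0.0227). The mean was 0.354 CPM in these controls and 0.170 CPM on the injured side, against 0.152 CPM in female controls at 5 weeks. The share of ribosomal RNA did not overlap between these sides, and its part in the Hpgd values was not tested. In males at 24 h the difference was -0.29 with 6 of 6 pairs lower (exact p = 0.0996, adjusted 0.0996), and in females at 5 weeks 0.24 with 4 of 6 pairs higher (exact p = 0.0649, adjusted 0.0974). These tests reassign libraries freely; the exact test within pairs of 1 animal, added after the data were seen, gave p = 0.0312 at 24 h and 0.0156 in females at 1 week, both the smallest such a test can give with 6 and 7 pairs and both 0.0469 after adjustment, and 0.125 in females at 5 weeks. For Hpgd, Ptgs1 and Ptgs2 the likeness to any other gene was weak, with a highest r of 0.51, 0.50 and 0.46.

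Alox5 (chr4:149531329-149578696, minus strand) is 5-lipoxygenase, which makes the leukotriene precursor in myeloid cells. Male contralateral libraries at 1 week held 0.842, 1.19 and 1.85 CPM (lowest, median and highest) and ipsilateral ones 1.46, 2.64 and 3.66. The ranges overlapped, and all 7 pairs were higher on the injured side. Alox5 rose by 0.91 ± 0.21 (1.88-fold, adjusted p = 0.000786). Female contralateral libraries at 1 week held 0.509, 1.07 and 1.61 CPM and ipsilateral ones 1.15, 1.29 and 2.25, a change of 0.46 ± 0.27 that was not called (adjusted p = 0.156, and 0.0342 against the female controls of 5 weeks). Alox5 overlaps LOC120102507 and a tRNA gene on the same strand.
Alox5ap (chr12:5748941-5772986, minus strand), the membrane protein that hands arachidonic acid to 5-lipoxygenase, held 2.34, 2.89 and 3.98 CPM in male contralateral libraries at 1 week and 3.31, 4.35 and 6.26 in ipsilateral ones. All 7 pairs were higher. It rose by 0.57 ± 0.14 (1.48-fold, adjusted p = 0.00197). The female value at 1 week was -0.09 ± 0.16 (adjusted p = 0.685). At 24 h it was -0.34 ± 0.17 (adjusted p = 0.204, and 0.0462 without control library 6), and in females at 5 weeks 0.40 ± 0.18 (adjusted p = 0.0726, and 0.0235 or 0.0407 without injured library 2 or 3).
At 5 weeks in males the 5 contralateral libraries held 2.33, 2.15, 3.25, 2.33 and 1.82 CPM of Alox5 and the 5 ipsilateral ones 1.80, 1.29, 1.18, 1.96 and 2.34. Injured libraries were lower in 4 of 5 pairs, and the change of -0.47 ± 0.25 was not called (adjusted p = 0.155); Alox5ap gave -0.35 ± 0.17 (adjusted p = 0.126), also lower in 4 of 5 pairs.
The difference between the weeks in males was -1.38 ± 0.32 for Alox5 (adjusted p = 0.0820) and -0.92 ± 0.22 for Alox5ap (adjusted p = 0.0968), in a comparison that called 0 of 10 members and 0.211% of all genes, 0.079% higher and 0.132% lower. DESeq2 called both (adjusted p = 0.0171 and 0.0255). With the replicate number as a block both were also called, with adjusted p = 0.0100 and 0.0200, and that block raised the count over all genes from 40 to 499. Against 24 h the side change at 1 week was higher by 1.17 ± 0.34 for Alox5 (adjusted p = 0.00832) and 0.91 ± 0.23 for Alox5ap (adjusted p = 0.00194); 5 members were higher and 1 lower in this comparison across the tables, which called 23% of all genes, 11% higher and 12% lower.
Male contralateral means at 24 h were 2.76 ± 1.23 CPM for Alox5 and 4.03 ± 1.26 for Alox5ap (SD, n = 6). The male control side differed between the weeks as well. Contralateral Alox5 was 1.31 ± 0.37 CPM (SD, n = 7) at 1 week and 2.37 ± 0.53 (n = 5) at 5 weeks, a rise of 0.85 ± 0.23 (adjusted p = 0.0143), and contralateral Alox5ap 2.90 ± 0.52 and 4.43 ± 0.57, a rise of 0.61 ± 0.16 (adjusted p = 0.0118); these were 2 of 10 members, against 13.5% of all genes called between these control groups, 7.32% higher and 6.19% lower. After adding ribosomal RNA content to the model, these control rises had adjusted p = 0.270 and 0.328. Set against the controls of 5 weeks, the injured libraries of 1 week gave 0.05 for Alox5 (adjusted p = 0.861) and -0.04 for Alox5ap (adjusted p = 0.864).
The levels of both genes moved together over libraries (r = 0.65, n = 62, group means removed). The genes most alike to Alox5 were Syk (r = 0.80), Plbd1 (r = 0.78) and Itgb2 (r = 0.76), and those most alike to Alox5ap were Itgb2 (r = 0.67), Chi3l1 (r = 0.66) and Ccr1 (r = 0.66).

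Ltc4s (chr10:34560476-34562790, minus strand) is leukotriene C4 synthase, the first step to the cysteinyl leukotrienes. In males at 1 week contralateral libraries held 0.156, 0.598 and 1.2 CPM (lowest, median and highest) and ipsilateral ones 0.498, 1.49 and 2.27. Female contralateral libraries at 1 week held 0.256, 0.555 and 0.726 CPM and ipsilateral ones 0.436, 1.04 and 1.69. Ranges overlapped in both sexes, with 7 of 7 male and 6 of 7 female pairs higher on the injured side. Ltc4s rose by 1.11 ± 0.30 in males (2.15-fold, adjusted p = 0.00414) and by 1.21 ± 0.36 in females (2.31-fold, adjusted p = 0.00614), and the difference between the sexes was 0.09 ± 0.48 (adjusted p = 0.981).
After adding ribosomal RNA content to the model, the female change was 1.62 (adjusted p = 0.0813), and against the male controls of 5 weeks the male change was 0.51 (adjusted p = 0.209). At 5 weeks the change was 0.54 ± 0.36 in males, higher in 5 of 5 pairs (adjusted p = 0.267, 0.0232 with the replicate number as a block, and 0.00736 against the male controls of 1 week), and 0.78 ± 0.43 in females, higher in 5 of 6 pairs (adjusted p = 0.144). The female control library of number 4 at 5 weeks held 1.41 CPM against 0.0987 to 0.389 in the other 5, and without it the change was 1.53 (adjusted p = 0.00310). The genes most alike to Ltc4s were Cd4 (r = 0.71), C1qb (r = 0.65) and Csf1r (r = 0.65), and the mean of 12 macrophage markers gave r = 0.66 (0.57 without the 2 farthest libraries). The macrophage markers summed to 284 to 794 CPM in the injured and 121 to 280 CPM in the control libraries of males at 1 week, and to 280 to 506 against 108 to 191 CPM in females at 1 week, with none of the 12 at 0. Alox5 gave r = 0.59 with neutrophil, 0.58 with macrophage, 0.55 with T and B cell and 0.52 with mast cell and eosinophil markers. Alox5ap gave r = 0.57 with mast cell and eosinophil, 0.54 with macrophage, 0.49 with T and B cell and 0.48 with endothelium and mural markers. With neuron markers r was -0.50 for Alox5 and -0.46 for Alox5ap. Ptges gave r = 0.52 with macrophage markers. The part of these cell types in the rise of Ltc4s, Alox5, Alox5ap and Ptges was not tested.

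Alox15 (chr10:55060169-55068885, minus strand), a lipoxygenase of eosinophils, immature red cells and some macrophages, had the widest range of changes. Male contralateral libraries at 1 week held 0.465, 1.36 and 3.92 CPM (lowest, median and highest) and ipsilateral ones 2.62, 5.17 and 7.90. The ranges overlapped through 1 control library, number 2, and all 7 pairs were higher. Alox15 rose by 1.65 ± 0.40 (3.13-fold, adjusted p = 0.00178).
At 24 h the male contralateral libraries held 0.952, 5.63 and 21.6 CPM and the ipsilateral ones 1.68, 2.39 and 5.98. Of 6 pairs 5 were lower on the injured side, and Alox15 fell by 1.28 ± 0.40 on the log2 scale (adjusted p = 0.0268). Without the control library of 21.6 CPM, number 5, the change was -0.61 (adjusted p = 0.286). The call was also lost without the ipsilateral library of number 1, 2, 4 or 5 (adjusted p = 0.0527, 0.0655, 0.0743 and 0.0527), with the animal as a block (-1.01, adjusted p = 0.156) and with the 2 groups fitted alone (adjusted p = 0.255).
The side change was higher at 1 week than at 24 h by 2.93 ± 0.57 (adjusted p = 0.000113). At 5 weeks it was -0.21 ± 0.48 in males (adjusted p = 0.784) and 0.11 ± 0.65 in females (adjusted p = 0.909), and in females at 1 week -0.55 ± 0.55 (adjusted p = 0.439). Against the male controls of 5 weeks the change at 1 week was 0.75 (adjusted p = 0.163). The difference between the sexes at 1 week was -2.21 ± 0.71 (adjusted p = 0.130; DESeq2 adjusted p = 0.0313).
Levels were low in all 26 female libraries, 0.0874 to 0.780 CPM, and higher in the 12 male libraries of 24 h in the same table, 0.952 to 21.6 CPM; these groups do not overlap, and they differ in both sex and time, which cannot be told apart. Alox15 moved with blood and marrow markers across 62 libraries, group means removed. The r was 0.85 with the 8 neutrophil and 0.80 with the 10 erythroid markers (0.81 and 0.80 without the 2 farthest libraries). With T and B cell markers it was 0.60 and with mast cell and eosinophil markers 0.53 (0.50 and 0.22 without these 2 libraries). With macrophage markers r was 0.11. The genes most alike were Mmp8 (r = 0.84), Mpo (r = 0.83) and Hemgn (r = 0.82). Neutrophil markers summed to 57.2 to 210.5 CPM in injured and 9.39 to 92.1 CPM in control libraries of males at 1 week, and to 13.7 to 119 against 21.6 to 493 CPM at 24 h, with none of the 8 at 0. At 24 h 2 of 7 neutrophil markers tested and 6 of 8 mast cell and eosinophil markers tested fell, and at 1 week in males all 8 and 4 of 9 rose. Their part in the Alox15 values was not tested.

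**Figure D2:**
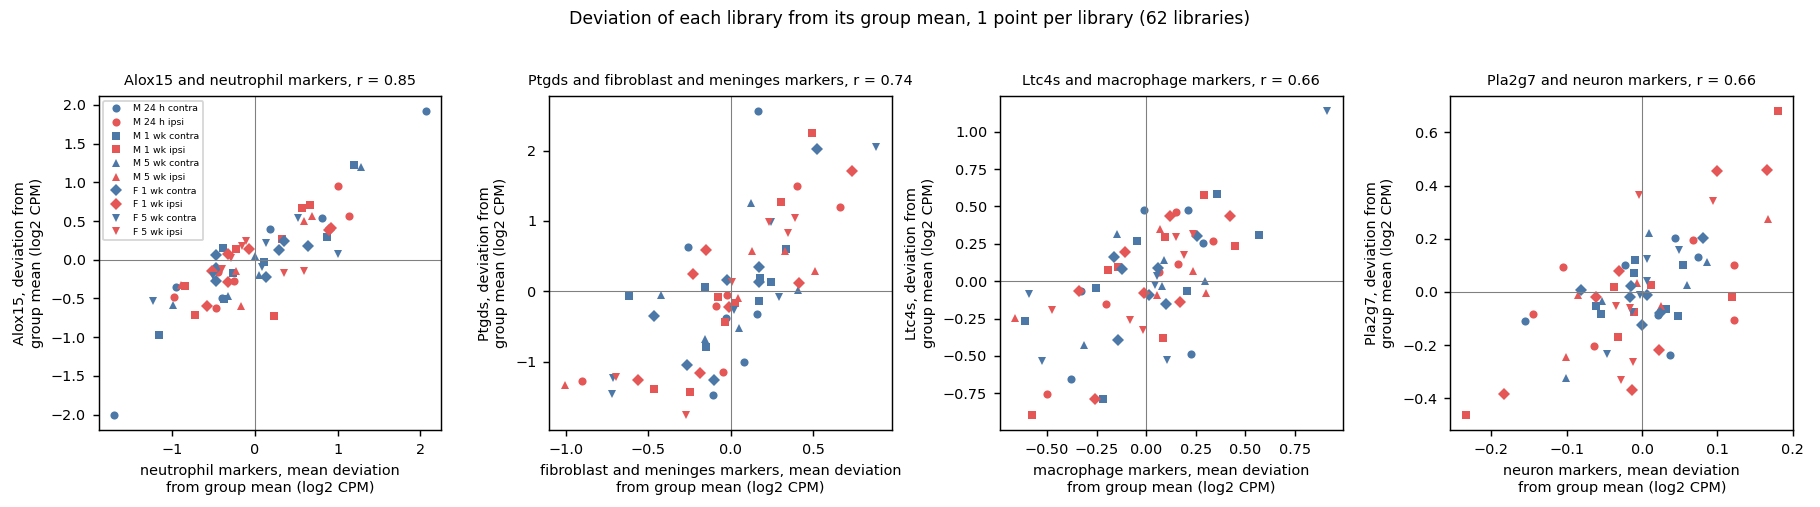
Deviation of each of 62 libraries from its group mean, on the log2 CPM scale, for 4 genes (vertical) against the mean deviation of a marker list (horizontal); blue is contralateral, red ipsilateral, and symbols give sex and time. Alox15 follows neutrophil markers most closely (r = 0.85), before Ptgds with fibroblast and meninges markers (r = 0.74).

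Pla2g7 (chr9:17362214-17404476, minus strand), the plasma-type platelet-activating factor acetylhydrolase, also clears oxidized phospholipids. At 24 h contralateral libraries held 52.1, 61.8 and 70.7 CPM (lowest, median and highest) and ipsilateral ones 50.6, 58.6 and 66.9. The sides overlapped almost entirely. At 1 week in males contralateral libraries held 63.3, 65.0 and 73.3 CPM and ipsilateral ones 13.2, 18.2 and 29.9. Female values at 1 week were 55.6, 60.3 and 70.0 against 15.8, 20.5 and 28.7 CPM. The highest injured library stayed far below the lowest control library in both sexes.
In males at 5 weeks the 5 contralateral libraries held 53.8, 65.8, 68.7, 78.8 and 72.9 CPM and the 5 ipsilateral ones 20.4, 24.9, 29.5, 24.1 and 23.4. In females at 5 weeks contralateral libraries held 59.8, 71.1 and 78.5 CPM and ipsilateral ones 19.8, 24.0 and 32.2. The sides again did not overlap, with all 5 male and all 6 female pairs lower on the injured side; sides without overlap were found in 20.9% of all genes in females at 1 week and 21.7% at 5 weeks.
Pla2g7 fell by 1.83 ± 0.12 in males at 1 week (3.55-fold, adjusted p = 4.17e-11), by 1.47 ± 0.15 in males at 5 weeks (2.77-fold, adjusted p = 5.24e-08), by 1.51 ± 0.12 in females at 1 week (2.86-fold, adjusted p = 8.20e-13) and by 1.48 ± 0.13 in females at 5 weeks (2.78-fold, adjusted p = 2.69e-11), all on the log2 scale. These 4 falls were called under each alternative run. At 24 h the change was -0.08 ± 0.12 (adjusted p = 0.742), and the side change at 1 week lay below it by -1.75 ± 0.18 (adjusted p = 1.85e-10). Between 1 and 5 weeks the side change differed by 0.36 ± 0.19 in males (adjusted p = 0.53) and 0.04 ± 0.17 in females (adjusted p = 0.929), and between the sexes by 0.30 ± 0.17 at 1 week (adjusted p = 0.530) and -0.04 ± 0.19 at 5 weeks (adjusted p = 0.967).
Control levels showed no called change between the weeks, 0.01 ± 0.13 in males (adjusted p = 0.98) and 0.22 ± 0.12 in females (adjusted p = 0.272). Over 62 libraries Pla2g7 was most alike to Vamp1 (r = 0.84), Lrrc49 (r = 0.84) and Extl2 (r = 0.82). It varied with the mean of 8 neuron markers (r = 0.66) and against that of the macrophage markers (r = -0.53). The summed neuron markers averaged 34200 ± 1053 CPM in control and 24743 ± 2240 in injured libraries of males at 1 week (SD, n = 7), and their part in the fall of Pla2g7 was not tested. The gene overlaps LOC120094968 on the same strand, and 22 of 62 libraries hold a fractional count for it.

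**Figure D3:**
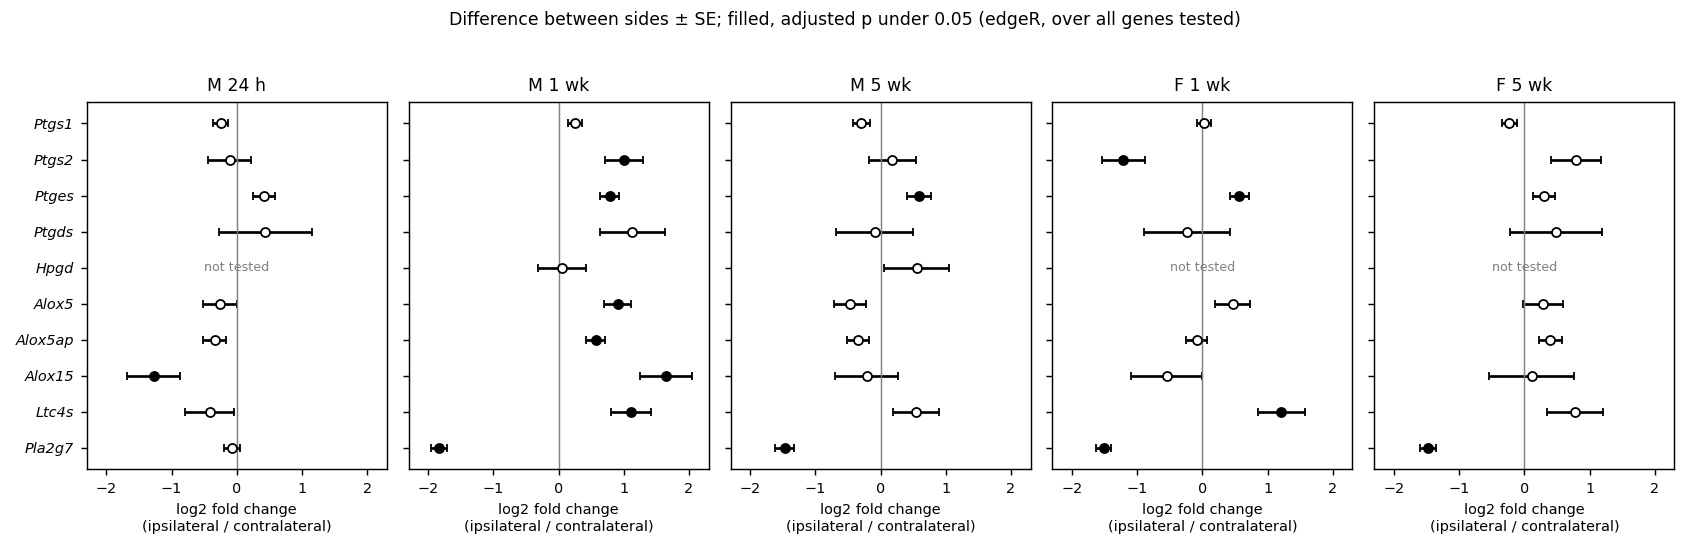
log2 fold change of ipsilateral over contralateral ± SE for the 10 genes in 5 comparisons; filled points have an adjusted p under 0.05. Pla2g7 lies between -1.83 and -1.47 in the 4 later comparisons and at -0.08 at 24 h, and Ptgs2 lies at 1.00 in males and -1.22 in females at 1 week.

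Other genes of these pathways were counted from lists that leave out the 10 members. Of 8 or 9 prostanoid receptors tested, 2 rose in each comparison and 1, 4, 4, 5 and 3 fell in males at 24 h, 1 and 5 weeks and females at 1 and 5 weeks; the list's median change ran from -0.14 to -0.43, against -0.01 to 0.01 over all genes tested, as for all lists below. Of all genes 14.1%, 46.9%, 34.7%, 45.7% and 41.9% were called in the same order of comparisons, and the counts of each list stand beside these shares. Ptger4, a prostaglandin E2 receptor coupled to cyclic AMP, rose in all 5, by 1.09 ± 0.11 at 24 h (8.58 to 18.2 CPM on average, adjusted p = 1.39e-09) and 0.74 ± 0.11 in females at 5 weeks (adjusted p = 8.34e-07). Ptgir, the prostacyclin receptor, rose in all 5, by 0.58 ± 0.08 at 24 h and 0.17 ± 0.05 in males at 5 weeks. Tbxa2r, the thromboxane receptor, fell in all 5, by 0.32 to 0.54 on the log2 scale. Ptgfr, the prostaglandin F receptor, fell by 0.77 ± 0.09 in males at 1 week and was called lower in the 4 later comparisons.

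Of 12 tested genes of prostanoid synthesis and transport, 0, 3, 1, 3 and 3 rose and 0, 2, 2, 1 and 2 fell in the same order, with medians from 0.03 to 0.12. Tbxas1, thromboxane synthase, rose by 1.47 ± 0.21 in males at 1 week, from 1.46 to 4.05 CPM on average, and in the other 3 later comparisons. Akr1b1, an aldose reductase that can form prostaglandin F, fell by 0.30 to 0.44 on the log2 scale in the same 4. Slco2a1, the prostaglandin transporter, rose in males at 1 week (0.77 ± 0.18) and females at 5 weeks (0.68 ± 0.24).

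Of 14 phospholipase A2 genes tested, 0, 2, 1, 2 and 2 rose and 2, 5, 4, 5 and 3 fell, 7 of 14 at 1 week in each sex, close to the share of all genes, with medians from -0.14 to 0.01. Pla2g4e, a calcium-dependent acyltransferase of the cytosolic phospholipase family, fell in all 5, by 0.78 ± 0.11 at 24 h and 1.19 ± 0.11 in males at 1 week. Pla2g3, a secreted phospholipase, fell by 0.59 ± 0.09 in males at 1 week and by 0.44 to 0.57 in the other 3 later comparisons. Pla2g15, the lysosomal enzyme, rose by 0.27 to 0.42 in these 4.

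Of 12 tested genes of lipoxygenase and leukotriene synthesis, 2, 4, 4, 3 and 4 rose and 2, 3, 3, 3 and 3 fell, with medians from -0.08 to 0.25. Ggt5, which cleaves leukotriene C4, rose in all 5, from 37.5 to 89.3 CPM on average in males at 1 week (1.25 ± 0.08, adjusted p = 6.82e-12). Aloxe3, an epidermal-type lipoxygenase, rose in all 5 at low level, from 0.225 to 0.988 CPM in females at 1 week (2.09 ± 0.29). Mgst3 fell by 0.50 ± 0.06 in males at 1 week and was called lower in the 4 later comparisons. Of 9 tested receptors for leukotrienes and other lipid mediators, 1, 5, 1, 2 and 3 rose and 1, 2, 2, 2 and 2 fell, with medians from -0.23 to 0.49. Cysltr1, a receptor for cysteinyl leukotrienes, rose in the 4 later comparisons, from 0.794 to 2.43 CPM in males at 1 week (1.6 ± 0.24) and from 0.717 to 1.98 CPM in females at 1 week (1.47 ± 0.24). Gpr18 rose in 3, by 2.10 ± 0.35 in males at 1 week, and Ptafr, the receptor for platelet-activating factor, in males at 1 week (0.49 ± 0.14) and females at 5 weeks (0.57 ± 0.12).

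Among 6 genes of platelet-activating factor metabolism other than Pla2g7, 0, 1, 1, 1 and 2 rose and 0 fell in any comparison, with medians from -0.02 to 0.09. Pafah2, the intracellular hydrolase of the same lipid, rose by 0.20 ± 0.06 in males at 1 week and 0.31 ± 0.07 at 5 weeks, and Pafah1b2 changed by -0.07 to 0.06 with no call. Of 9 epoxygenase and epoxide hydrolase genes tested, 0, 3, 1, 1 and 1 rose and 0, 1, 1, 1 and 1 fell, with medians from -0.08 to 0.16. Ephx1, the microsomal epoxide hydrolase, fell by 0.47 to 0.55 on the log2 scale in the 4 later comparisons, and Cyp2j3 rose by 0.34 to 0.38.

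**Figure D4:**
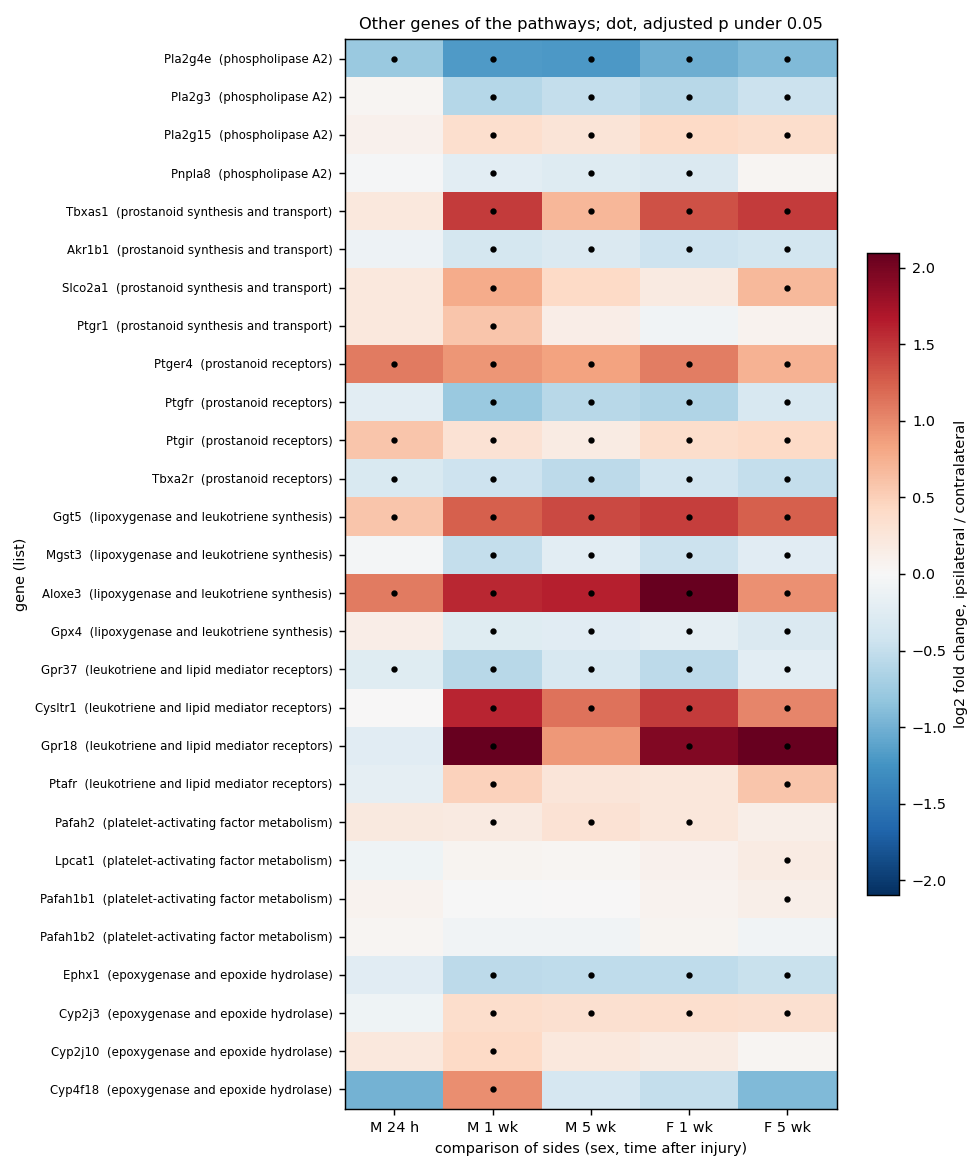
log2 fold change of ipsilateral over contralateral, as colour, for the 4 genes of each pathway list with the smallest p, in 5 comparisons; a dot marks an adjusted p under 0.05. Ptger4, Ptgir, Ggt5 and Aloxe3 are higher and Pla2g4e, Tbxa2r and Gpr37 lower in all 5 columns.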

How the data were processed

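Poly-A RNA of L4 ganglia was sequenced in 62 libraries (stranded kit, per the labels' protocols). The authors deposited estimated counts for each gene, with fractions where reads were shared: 74.1% of nonzero values in the table of males at 1 and 5 weeks and 78.1% in the other are whole. They were made by the authors with cutadapt 2.5, STAR 2.7.2b and featureCounts 1.6.4 on mRatBN7.2, per the submitters' processing notes; the strand setting of counting is not given in the sources used here. The planned unit was whole counts; the values were therefore rounded, with library totals changing by 0.0054% or less.

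With R 4.3.3, genes passing filterByExpr (minimum count 10) were TMM-scaled and tested with edgeR 4.0.16 (robust quasi-likelihood, 1 coefficient per group): 18994 genes in the first table, 18135 in the second and 19223 in a joint fit across tables. Each SE was derived from the log2 fold change and its F statistic. CPM use the scaled library sizes. For likeness, log2(CPM + 0.5) was centred by group, among genes of mean CPM of at least 1 in both tables. Counts were also simulated with the group sizes of females at 1 week, with 50 genes drawn at random changed at each fold and sides drawn independently. There 62% of 1.5-fold and 90% of 2-fold changes were found, over 18135 genes, with 18 false calls. In the data far more genes were called and the sides of a pair correlated. The shares found are not those of genes read as rarely as Ptgs2 and Hpgd.

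Libraries of 1 number were taken as pairs in the pair counts, in the replicate block and in the exact test within pairs. The main edgeR tests fitted group means without the block, so their SE and p-values leave the pairing out. In the second table the labels give both sides of an animal the same code; there 4 of 6 same-numbered pairs at 24 h (lowest -0.016), 6 of 7 in females at 1 week and 6 of 6 at 5 weeks correlated above 0.1 after group means were removed. In the first table the labels give only a number, and the pairing rests on the data: all 7 and all 5 pairs correlated above 0.1 (medians 0.431 and 0.341). The labels there do not name the animals, so p-values measure the spread between these samples. Alternatives were RLE scaling, DESeq2 1.42.0, limma 3.58.1 (voom), 2 other filters, the block, the ribosomal RNA share, other-week controls, fits of 2 groups and leaving out libraries. The 10 members, the 7 pathway lists and the 11 marker lists were chosen with earlier results of these data known. Named were all members, the 4 genes per pathway list with the smallest p, and the 3 genes most alike to a member; 1 of these is not reported here.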

Additional observations from a re-analysis of the deposited data

Results flagged for a closer look

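Dixon's test at the 95% level was run on CPM without a log scale. Its chance share of about 1 in 20 assumes normally distributed values, which was not checked, so the count below is not set against chance. Several values stood apart from the rest of their group by this test, 14 of 100 gene and group combinations. Ptgds had 4 of them, each the highest library: 447 CPM in female controls at 1 week (the others 45.5 to 140.1), 322 CPM in injured females at 1 week (40.4 to 148), 419 CPM in male controls at 24 h (25.1 to 109.6) and 260.3 CPM in male controls at 5 weeks (67.3 to 109.3). Alox15 had 3, all in male controls: 3.92 CPM at 1 week (0.465 to 1.83), 21.6 CPM at 24 h (0.952 to 7.95) and 6.73 CPM at 5 weeks (1.59 to 2.75). Alox5ap stood at 1.36 CPM in female controls at 5 weeks (2.3 to 2.71), at 3.98 CPM in male controls at 1 week (2.34 to 2.90) and at 6.26 CPM in injured males at 1 week (3.31 to 4.47). The female control library of number 4 at 5 weeks stood apart in both Ptges (3.09 CPM) and Ltc4s (1.41 CPM). Pla2g7 stood at 70.0 CPM in female controls at 1 week (55.6 to 61.8) and at 29.9 CPM in injured males at 1 week (13.2 to 18.8).

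Side changes that differed between groups by the interaction test of edgeR were those of Ptgs2 and of 6 members between 24 h and 1 week in males. For Ptgs2 the difference was 2.01 between the weeks in females and -2.23 between the sexes at 1 week. From 24 h to 1 week the side change moved by 0.50 for Ptgs1, 1.17 for Alox5, 0.91 for Alox5ap, 2.93 for Alox15, 1.52 for Ltc4s and -1.75 for Pla2g7. Male control means were lower at 1 week than at 24 h for each of these genes but Pla2g7. They were 2.76 CPM at 24 h and 1.31 at 1 week for Alox5, and 4.03 and 2.9 for Alox5ap. For Alox15 they were 7.57 (SD 7.32) and 1.6 CPM. Injured means at 1 week were 2.47 CPM for Alox5, 4.32 for Alox5ap and 5.05 for Alox15. The part of the control levels in these moves was not tested. The libraries of 24 h and of 1 week in males come from different tables, so time and table cannot be told apart here.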

How the results depend on the processing

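Over all alternatives other than leaving out single libraries, 813 values of members kept their side of the threshold, 14 lost a call and 15 gained one. A further 2 lost their call with a change of sign, both with the controls of the other week. These were Alox5ap in males at 1 week (-0.037, adjusted p = 0.864) and Ptgs2 in females at 1 week (0.035, adjusted p = 0.954). The other week's controls left 2 members called in males at 1 week, Ptges and Pla2g7. At 24 h 0 members were called without a filter on low counts, with the replicate block, with limma-voom and with the 2 groups fitted alone. The ribosomal RNA share as a covariate left 2 members called in females at 1 week and 0 between female weeks, between sexes at 1 week and between male control weeks. With the stricter filter, which leaves Ptgs2 untested in the second table, 0 were called between female weeks, between female control weeks and between sexes at 1 week. DESeq2 gave Ptgs2 no adjusted p in these 3 comparisons. It called 0 members between female weeks and between female control weeks, and 1, Alox15, between sexes at 1 week. Between male weeks the replicate block and DESeq2 each called 2, and limma-voom called 2 in females at 5 weeks. The replicate block pairs libraries of 1 number, and for males at 1 and 5 weeks the labels do not state that these share an animal. The block changed no other call than those given here and in the report. Leaving out 1 library gave 0 to 2 members called in males at 24 h, 7 to 8 at 1 week, 2 to 3 at 5 weeks, 4 in females at 1 week and 1 to 3 at 5 weeks. Over all genes, calls moved from 40 to 499 (block) and 138 (DESeq2) between male weeks, from 2566 to 555 between male control weeks, from 8284 to 4066 in females at 1 week and from 2452 to 717 between female weeks (all 3 with the ribosomal RNA share), from 2556 to 1597 (2 groups alone) and 1458 (without numbers 5 and 6 of both sides, chosen with earlier results known, whose control libraries hold the highest Alox15 and the highest Ptgds level of the group) at 24 h, and with the block from 218 to 524 between sexes at 1 week and from 403 to 695 at 5 weeks. The cause of these moves was not tested. Depth limits Ptgs2 and Hpgd most, with at most 18 and 14 reads a library.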

Other observations

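Markers of further cell types were counted in the same way. All 7 myelin markers of Schwann cells fell at 1 week in males and females, 1 and 2 fell at 5 weeks, and 0 at 24 h. Of 6 satellite glia markers 2 rose and 3 fell in males at 1 week, 2 rose and 1 fell in males at 5 weeks, 1 rose and 1 fell in females at 1 week, and 3 rose in females at 5 weeks. Of 9 endothelial and mural markers 5 rose in females at 5 weeks and 0 elsewhere, and 1 fell at 1 week in each sex. Of 8 T and B cell markers tested 5 rose in males at 1 week and 0 at 5 weeks; of 6 tested in females, 1 rose and 1 fell at 1 week and 1 rose at 5 weeks, and 0 of 6 were called at 24 h. Of 10 fibroblast and meninges markers 4 rose and 1 fell in males at 1 week, 3 rose and 1 fell in females at 5 weeks, 1 fell in males at 5 weeks and in females at 1 week, and 2 fell at 24 h. Of the mast cell and eosinophil markers 1 of 9 rose in males at 5 weeks, 1 of 8 rose and 1 fell in females at 1 week, and 1 of 8 rose and 2 fell in females at 5 weeks.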
